A study of Mus musculus with 13 samples.

Results

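A set of 9 genes of the pericellular matrix was followed after serum was given back to C2C12 cells, mouse myoblasts that can fuse into muscle fibres in culture: the matricellular genes Tnc, Thbs1, Thbs2, Sparc, Postn and Spp1, the fibronectin gene Fn1, the perlecan gene Hspg2 and the hyaluronan synthase gene Has2. The members were the probe sets whose platform annotation names 1 of these genes and no other. They numbered 17 of 45037 probe sets tested and gave values for 8 of the 9 genes, out of 18193 genes in all. No probe set was named for Spp1 alone in the annotation used, so osteopontin has no value here. A further probe set that names Thbs1 together with another gene was left out.

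The cells had been grown to 90% confluence in 5% fetal bovine serum, held for 24 h in 0.2% serum and returned to serum-containing medium. The labels describe flasks set up in parallel, with 1 Affymetrix array per time point and no replicate. Neither a transgene nor a drug is named, and the untreated reference is the single array at 0 h. The study searched for genes whose expression oscillates, in work on the formation of somites. The 13 arrays used here covered 0 to 6.0 h in steps of 0.5 h. They were placed by labelled time in an early (0.5 to 2.0 h), a middle (2.5 to 4.0 h) and a late (4.5 to 6.0 h) window of 4 arrays each. Later times were not analysed here.

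Matricellular proteins are secreted into the matrix but act mainly on cells: they bind integrins, other surface receptors and growth factors and change how firmly a cell adheres. Fibronectin is the adhesive glycoprotein that cells assemble into fibrils through integrins. Hyaluronan is a long sugar polymer spun out through the plasma membrane by Has enzymes, and perlecan is a heparan sulfate proteoglycan of basement membranes such as the one around muscle fibres. In regenerating muscle this provisional matrix is remodelled around activated precursor cells.

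The deposited values are ratios of each probe set to a reference value of its own. They carry changes over time and no level, so genes cannot be ranked by abundance and the labelled cell type cannot be checked by the level of its markers. Of 9 myoblast markers, 0 rose and 0 fell from 0 h to the early window, and of 8 blood and endothelial markers 0 rose and 0 fell. The same step had 0 up and 1 down (Pdgfra) of 6 fibroblast markers and 0 of 4 adipocyte and osteoblast markers. Of all genes, 3.26% were called in this step. The Pdgfra call was lost after quantile normalization (limma, adjusted p = 0.363) and in 3 of 12 fits with 1 array left out. The blood and endothelial list had a median log2 difference of 0.24 early against 0 h, beside -0.03 over all genes, and 1 of its genes, Adgre1, was up late against 0 h; its part in the results was not tested.

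Markers moved in the later comparisons too. Of all genes, 22.2% were called from early to middle, 12.3% from middle to late (10.3% rose) and 18.7% late against 0 h. From early to middle the myoblast markers Msc (0.40 ± 0.06) rose and Myf5 (-0.60 ± 0.12) fell, and the fibroblast marker Dcn fell (-0.29 ± 0.06). From middle to late 3 of 9 myoblast markers rose, Myf5 (0.53 ± 0.12), Myog (0.25 ± 0.07) and Chrna1 (0.20 ± 0.05), each lost in at least 1 fit without an array. Late against 0 h 4 markers fell: Cdh15 (-0.57 ± 0.11, myoblast), Pdgfra (-0.58 ± 0.10) and Dcn (-0.36 ± 0.09) of the fibroblast list, and Cebpa (-0.80 ± 0.22, adipocyte). The part of these changes in the members' results was not tested. The median ratio of the arrays lay between 0.977 and 1.00. The spread differed more. The SD of the log2 ratio over all probe sets was 0.318 at 0 h and 0.188 to 0.299 on the other 12 arrays. The number of arrays limits the precision, and p-values measure the spread of arrays inside a window, where noise and true change over time cannot be told apart. Each difference is a difference of log2 ratios ± its standard error, from a limma fit over all genes, with p-values adjusted over all genes (Benjamini-Hochberg, threshold 0.05). Values of a single probe set come from the same fit over all probe sets.

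**Figure D1:**
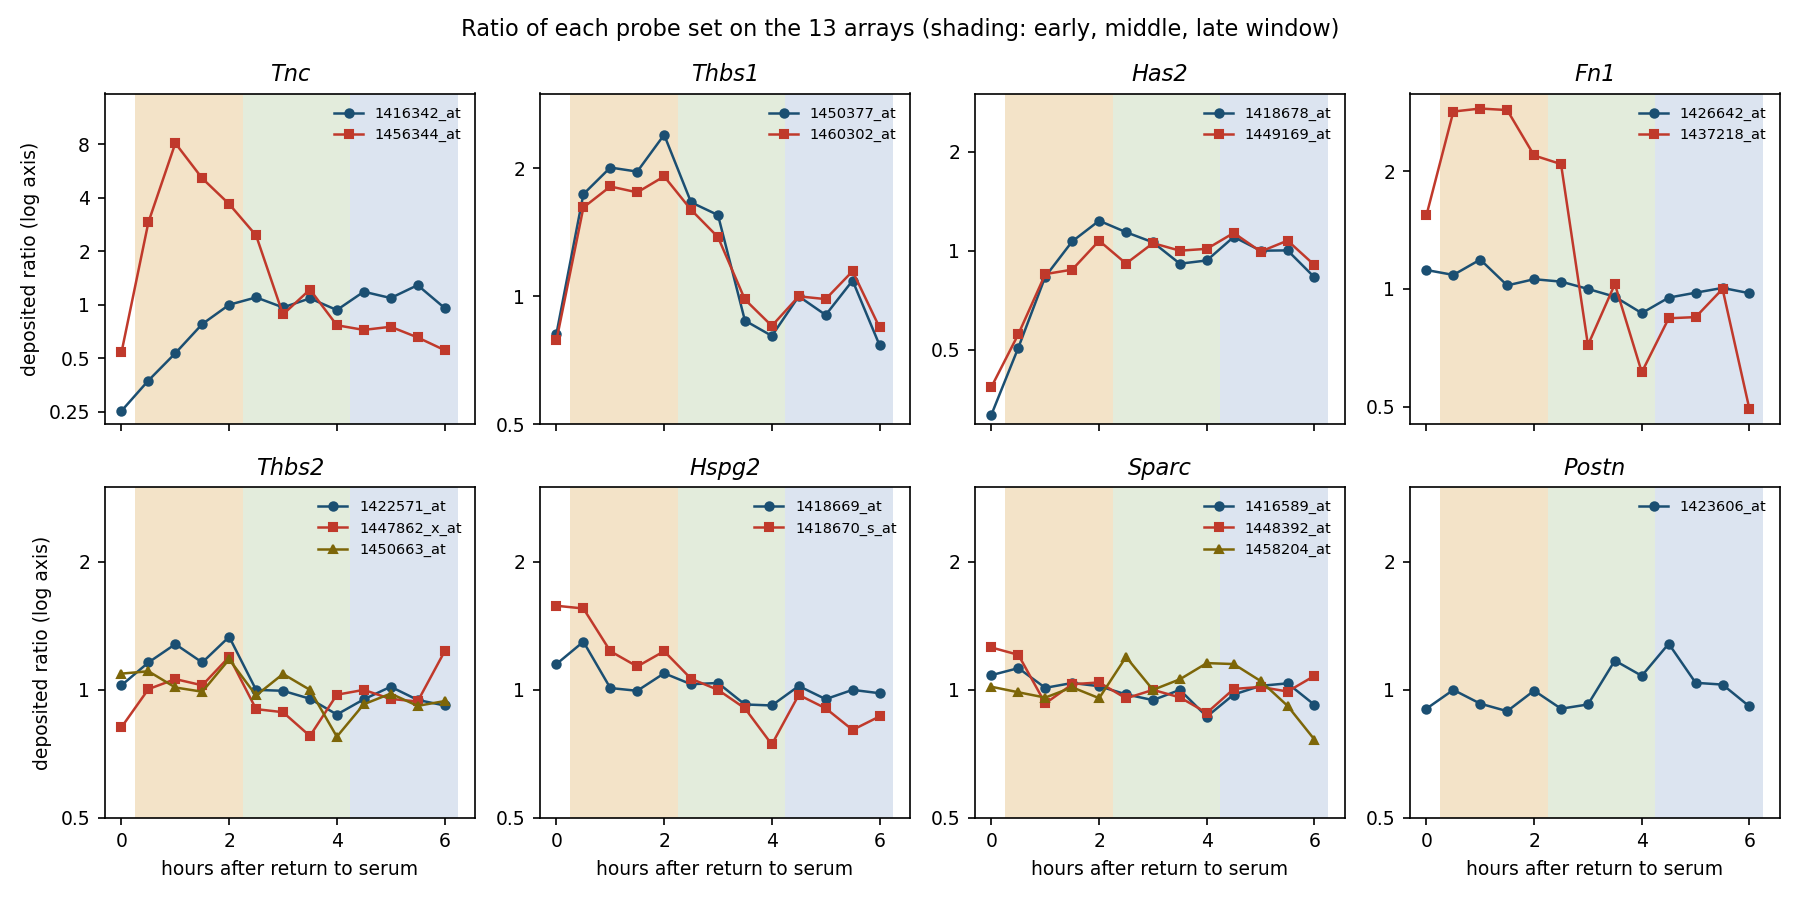
Deposited ratio (log axis, range differing between panels) of each of the 17 probe sets against hours after the return to serum, 1 panel per gene, 1 point per array and 1 line per probe set. Tnc 1456344_at reached 8.10 at 1.0 h, the Thbs1 and Has2 probe sets moved in pairs, and Sparc and Postn stayed between 0.764 and 1.28.

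Tnc encodes tenascin C, a large glycoprotein that loosens adhesion to fibronectin and is prominent in embryonic and injured tissue. Its value rose by 2.20 ± 0.34 from 0 h to the early window (adjusted p = 0.00581), and the mean of its 2 probe sets was 5.63-fold over 0 h at 1.0 h. That mean joined different courses. Probe set 1456344_at stood at 0.540 at 0 h and at 2.91, 8.10, 5.14 and 3.68 on the 4 early arrays, 15.0-fold over 0 h at the highest. It was at 2.45, 0.882, 1.22 and 0.767 on the middle arrays and at 0.722, 0.752, 0.655 and 0.556 on the late ones. Every early array thus lay above every middle and late array, and the 6.0 h array was 1.03-fold over 0 h. The share of all probe sets that part in this way was not counted. From early to middle, 18.0% of all probe sets were called.

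Probe set 1416342_at of Tnc started at 0.253 and stood at 0.375, 0.534, 0.779 and 1.00 on the early arrays. It was at 1.10, 0.966, 1.09 and 0.934 in the middle window and at 1.18, 1.09, 1.29 and 0.960 in the late one. This probe set climbed step by step to 2.0 h and stayed high, with its highest array, 5.09-fold over 0 h, at 5.5 h. The annotation ties 1416342_at to the RefSeq transcript of Tnc, and 1456344_at to a GenBank record that is no RefSeq transcript. Where on the gene the probes lie was not tested.

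By window, 1456344_at rose by 3.09 ± 0.50 from 0 h to the early window (adjusted p = 0.00599) and then fell by 1.95 on the log2 scale (± 0.32, adjusted p = 9.31e-04) to the middle window. In the same steps 1416342_at rose by 1.31 ± 0.33 (adjusted p = 0.0466) and again by 0.70 ± 0.21 (adjusted p = 0.0328). Both early values rest on 1 array at 0 h. Both early calls were lost after quantile normalization (limma, adjusted p = 0.117 for 1456344_at and 0.522 for 1416342_at). With a variance trend and robust prior, 1416342_at lost both of its calls (adjusted p = 0.0853 and 0.0674). With an early window of 0.5 to 1.5 h it lost the first (adjusted p = 0.0569). The first call of 1416342_at was lost without any array from 1.0 to 6.0 h other than 2.0 h (adjusted p up to 0.0851), and the second without the 0.5, 1.0, 2.5, 3.0, 3.5 or 4.0 h array (adjusted p up to 0.0934). In the late window against 0 h, 1416342_at was up by 2.15 ± 0.33 (adjusted p = 9.83e-04), whereas 1456344_at differed by 0.30 ± 0.50 (adjusted p = 0.761).

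The divergence itself was tested over all 30372 pairs of probe sets that share a gene. From the early to the middle window, the change of 1456344_at minus that of 1416342_at was -2.64 ± 0.34 (adjusted p = 3.75e-04). Of all pairs, 15.3% were called in this comparison. In the late window against 0 h the difference was -1.85 ± 0.53 (adjusted p = 0.0374; 10.7% of pairs called), a call lost without the 4.5, 5.0, 5.5 or 6.0 h array (adjusted p = 0.0508 to 0.0682). Early against 0 h it was 1.78 ± 0.53 and missed the threshold (adjusted p = 0.0796; 3.08% of pairs called), though it passed without the 2.0 h array (adjusted p = 0.0299) or the 2.5 h array (adjusted p = 0.0469). Over the 13 arrays the log2 ratios of these probe sets had a Pearson correlation of -0.187.

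The promoter windows in RefSeq (GRCm38.p6) covered 6 of the 9 genes: Hspg2, Postn, Sparc, Spp1, Thbs2 and Tnc. Shown here are the 250 bases before the outermost annotated start of a gene called in the early window (Tnc), of one that fell from early to middle (Thbs2) and of one with no call in any window comparison (Sparc), all on the minus strand and written 5′ to 3′. They lie at chr4:64047016-64047265, chr17:14694263-14694512 and chr11:55420081-55420330. Capitals mark matches to the motifs searched.
Tnc: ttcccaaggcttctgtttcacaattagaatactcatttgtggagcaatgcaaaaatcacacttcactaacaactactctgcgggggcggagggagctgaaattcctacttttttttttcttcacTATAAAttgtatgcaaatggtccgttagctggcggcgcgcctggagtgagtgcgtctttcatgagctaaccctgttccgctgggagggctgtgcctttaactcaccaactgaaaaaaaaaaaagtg
Thbs2: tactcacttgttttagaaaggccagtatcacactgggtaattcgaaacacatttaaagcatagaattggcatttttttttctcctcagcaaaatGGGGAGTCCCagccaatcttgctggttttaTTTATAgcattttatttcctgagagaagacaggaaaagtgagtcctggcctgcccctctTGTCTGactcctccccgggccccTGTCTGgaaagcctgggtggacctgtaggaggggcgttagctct
Sparc: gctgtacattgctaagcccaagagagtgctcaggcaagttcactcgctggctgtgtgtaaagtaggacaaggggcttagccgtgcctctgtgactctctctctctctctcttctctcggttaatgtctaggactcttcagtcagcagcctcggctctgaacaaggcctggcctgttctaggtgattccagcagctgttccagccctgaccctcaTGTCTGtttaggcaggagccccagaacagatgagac

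The motifs were read on both strands. They were the AP-1 site TGANTCA, the TEAD site GGAATG, the SMAD site CAGACA, the TATA box TATAAA, the NF-kappaB site and the CArG box bound by SRF. The Tnc window held 1 match, a TATA box beginning 126 bases before the start. The Sparc window held 1 SMAD site at 36 bases, and the Thbs2 window held SMAD sites at 67 and 44 bases, an NF-kappaB site at 156 bases and a TATA box at 126 bases. Over 32851 windows of this length, 12.4% held the TATA box, 17.1% the SMAD site and 3.90% the NF-kappaB site. The other motifs, found in 6.75% (AP-1), 12.6% (TEAD) and 1.47% (CArG) of windows, had no match in these 3. Tnc has a second annotated start further downstream, whose window shares the TATA box and adds a SMAD site. A match is a string of letters and not a measured site.

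Thbs1, the gene of thrombospondin 1, which binds CD47 and CD36 and can activate latent TGF-beta, rose and came back. Probe set 1450377_at was at 0.817 at 0 h and at 1.74, 2.01, 1.97 and 2.40 on the early arrays. It was at 1.66, 1.55, 0.877 and 0.807 on the middle arrays and at 1.00, 0.904, 1.09 and 0.768 on the late ones. Every early array exceeded every other array, a parting that was not counted over all probe sets. The fall began after 2.0 h, with a step from 1.55 at 3.0 h to 0.877 at 3.5 h. The second probe set, 1460302_at, ran from 0.788 at 0 h through 1.62 to 1.92 in the early window to 0.845 at 6.0 h, and the 2 correlated at 0.989 over the 13 arrays.

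As a gene value, Thbs1 rose by 1.24 ± 0.28 from 0 h to the early window (adjusted p = 0.0330) and fell by 0.70 on the log2 scale (± 0.18, adjusted p = 0.0133) to the middle window. Its highest array, 2.0 h, was 2.67-fold over 0 h. At 6.0 h it was 1.00-fold, and between the late window and 0 h the difference was 0.26 ± 0.28 (adjusted p = 0.589). The early call lay close to the threshold: it was lost without the 1.0, 1.5, 2.0 or 5.0 h array (adjusted p = 0.0502 to 0.0575) and with a variance trend and robust prior (adjusted p = 0.0696). With an early window of 0.5 to 1.5 h, both calls were lost (adjusted p = 0.135 and 0.215).

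Has2 makes long-chain hyaluronan, the main component of the soft coat around migrating and dividing cells, and it rose without coming back. Probe set 1418678_at was at 0.318 at 0 h, at 0.508, 0.834, 1.07 and 1.23 on the early arrays and between 0.830 and 1.14 on the 8 later ones. Probe set 1449169_at was at 0.386 at 0 h, at 0.558, 0.849, 0.876 and 1.07 on the early arrays and between 0.904 and 1.13 after that. The 0 h array was the lowest of the 13 for both probe sets and the 0.5 h array the next. The rise was thus spread over about 4 arrays and was followed by a plateau.

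The Has2 gene value rose by 1.26 ± 0.27 in the early window (adjusted p = 0.0237), reached 3.28-fold over 0 h at 2.0 h and still stood at 2.47-fold at 6.0 h. It was up by 1.51 ± 0.27 late against 0 h (adjusted p = 0.00184). Between the early and middle windows it differed by 0.25 ± 0.17 (adjusted p = 0.307), and between the middle and late windows by -8.01e-04 ± 0.17 (adjusted p = 0.998). The probe sets correlated at 0.955, and the difference between their changes was not called in any of the 3 comparisons named (adjusted p = 0.292, 0.763 and 0.486 for early against 0 h, middle against early and late against 0 h).

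The Fn1 probe sets, like those of Tnc and Hspg2, parted between the early and middle windows. Probe set 1437218_at was at 1.54 at 0 h, at 2.85, 2.90, 2.87 and 2.20 on the early arrays and at 2.09 at 2.5 h. It then stood at 0.718, 1.03 and 0.612 from 3.0 to 4.0 h and at 0.841, 0.847, 1.00 and 0.492 on the late arrays. The 5 arrays from 0.5 to 2.5 h all lay above 0 h, and the 7 arrays from 3.0 h on all lay below it. The share of all probe sets with such a split was not counted. Probe set 1426642_at, by contrast, ran only from 0.867 to 1.19 over the whole course.

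From early to middle 1437218_at fell by 1.45 on the log2 scale (± 0.29, adjusted p = 0.00355), whereas 1426642_at differed by -0.17 ± 0.07 (adjusted p = 0.109). The difference between these changes was -1.27 ± 0.27 (adjusted p = 0.00619). Early against 0 h, 1437218_at differed by 0.80 ± 0.46 (adjusted p = 0.369). At 6.0 h it was at 0.319 of its 0 h value, but the late window against 0 h missed the threshold (adjusted p = 0.165). As a gene value Fn1 fell by 0.81 from early to middle (± 0.17, adjusted p = 0.00440), a call that missed the threshold after quantile normalization (adjusted p = 0.0588). Its late difference from 0 h was -0.60 ± 0.27 (adjusted p = 0.140), which passed without the 2.5 h array (adjusted p = 0.0351). The annotation ties neither Fn1 probe set to a RefSeq transcript.

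**Figure D2:**
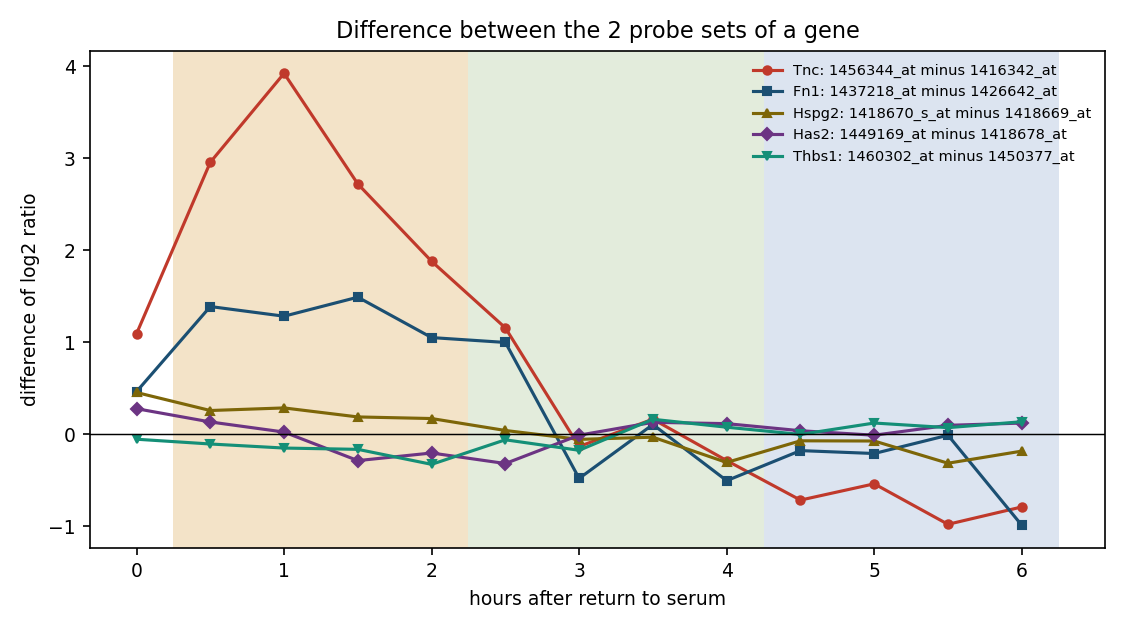
Difference of log2 ratio between the 2 probe sets of a gene (first minus second as named in the key) on each array, against hours after the return to serum. Tnc and Fn1 lay well above 0 up to 2.5 h and near or below it after that, whereas the Thbs1 and Has2 lines stayed close to 0.

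Thbs2 encodes thrombospondin 2, which limits vessel growth and collagen fibril size. Its 3 probe sets lay between 0.776 and 1.33 on all arrays. The clearest, 1422571_at, was at 1.03 at 0 h and at 1.16, 1.28, 1.16 and 1.33 on the early arrays. It was at 0.875 to 1.02 on the 8 later ones, so that early arrays did not overlap with later ones. In 1447862_x_at and 1450663_at they did overlap, and neither was called from early to middle (adjusted p = 0.0560 and 0.229). How many of all probe sets part in this way was not counted. As a gene value Thbs2 fell by 0.27 from early to middle (± 0.06, adjusted p = 0.00671). That call was lost with an early window of 0.5 to 1.5 h (adjusted p = 0.325) and with 1 probe set per gene (adjusted p = 0.052). It differed by 0.21 ± 0.10 early against 0 h (adjusted p = 0.251).

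Hspg2 fell over the course, with the fall called in probe set 1418670_s_at alone. Probe set 1418670_s_at was at 1.58 at 0 h and at 1.55, 1.23, 1.14 and 1.23 on the early arrays. It was at 1.06, 1.00, 0.905 and 0.744 in the middle window and at 0.973, 0.905, 0.805 and 0.866 in the late one. The 4 late arrays all lay below the early ones, and the 6.0 h array was at 0.549 of the 0 h value. Such partings were not counted over all probe sets. Probe set 1418669_at ran from 0.919 to 1.30, with 0.5 h highest. It was not called from early to middle (limma, adjusted p = 0.196) or late against 0 h (adjusted p = 0.304).

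The Hspg2 gene value fell by 0.53 on the log2 scale from 0 h to the late window (± 0.14, adjusted p = 0.0210). It fell by 0.32 from early to middle (± 0.09, adjusted p = 0.0219), a call lost without the 0.5, 3.5 or 4.0 h array (adjusted p = 0.0552 to 0.0702) and with an early window of 0.5 to 1.5 h (adjusted p = 0.114). Early against 0 h the difference was -0.19 ± 0.14 (adjusted p = 0.509). The 2 probe sets correlated at 0.853 but changed by unequal amounts late against 0 h, by -0.83 ± 0.18 and -0.22 ± 0.13 (difference -0.61 ± 0.15, adjusted p = 0.0192).

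Sparc, a calcium- and collagen-binding glycoprotein of remodelling tissue, was not called in any window comparison. Its 3 probe sets lay between 0.764 and 1.26, and as a gene it differed by -0.12 ± 0.09 early against 0 h (adjusted p = 0.504) and by -0.17 ± 0.09 late against 0 h (adjusted p = 0.224). Its range over the 13 arrays, 0.29 on the log2 scale, was wider than that of 15.1% of genes. That is the range of a mean of 3 probe sets, of which 1458204_at correlated with the other 2 at -0.105 and -0.345. Alone, the 3 probe sets had fold ranges of 1.301, 1.425 and 1.564, which were not ranked among all probe sets. The gene values of Tnc (2.49), Has2 (1.71), Fn1 (1.42) and Thbs1 (1.42) had ranges wider than those of 99.8%, 99.3%, 98.5% and 98.5% of genes in that order. Postn, the gene of periostin, a matrix protein of injured and loaded tissue, has 1 probe set. It lay between 0.891 and 1.00 from 0 to 3.0 h, was highest at 1.28 at 4.5 h and stood at 0.914 at 6.0 h. Its late difference from 0 h was 0.23 ± 0.16 (adjusted p = 0.362).

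**Figure D3:**
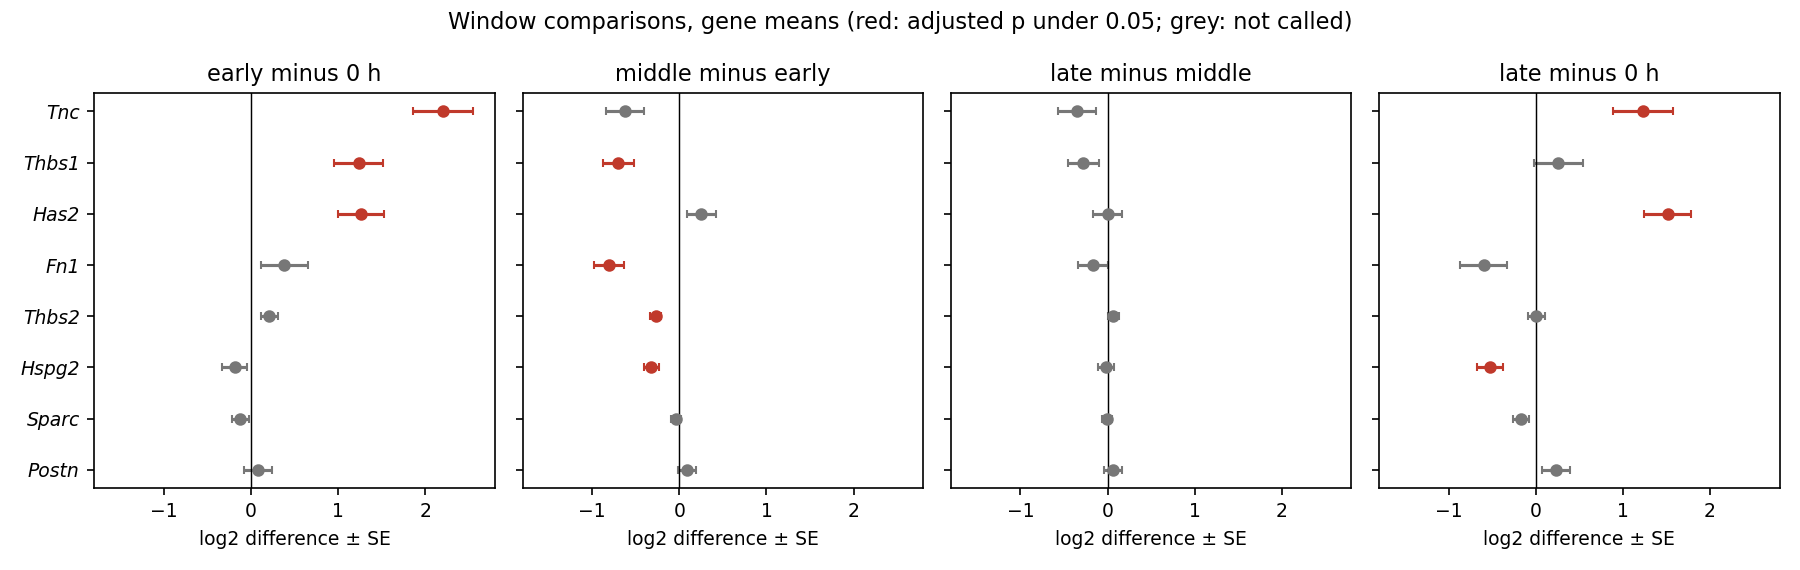
Log2 difference (point) and standard error (bar) of each gene mean in the 4 window comparisons, from the fit over 13 arrays; red points passed an adjusted p of 0.05 and grey ones did not. Tnc, Thbs1 and Has2 passed upward early against 0 h, and no gene passed between the middle and late windows.

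Counted over the 8 genes with values, 3 rose and 0 fell from 0 h to the early window, where 3.26% of all genes were called (1.46% rose and 1.81% fell). From early to middle 0 rose and 4 fell (Fn1, Thbs1, Thbs2 and Hspg2), where 22.2% of all genes were called (7.74% rose and 14.4% fell). Tnc missed the threshold in that step as a mean of opposed probe sets (-0.62 ± 0.22, adjusted p = 0.0522), and passed without the 0.5 h array (adjusted p = 0.00431) or the 2.5 h array (adjusted p = 0.0115). Between the middle and late windows 0 of 8 were called by limma, with 0 at an unadjusted p under 0.05, where 12.3% of all genes were called (10.3% rose and 2.06% fell). By the late window 2 genes stood above 0 h, Tnc and Has2, and 1 below it, Hspg2, where 18.7% of all genes were called (8.80% rose and 9.90% fell). Tnc as a gene was up by 1.23 ± 0.34 there (adjusted p = 0.0229), with 1416342_at called and 1456344_at not. For Hspg2, 1418670_s_at was called there and 1418669_at was not. The median log2 difference of the 8 genes was 0.29, -0.30, -0.01 and 0.12 in the 4 comparisons, beside -0.03, -8.66e-04, 0.02 and -0.01 over all genes. The comparisons share arrays: the 0 h array and each window enter 2 of the 4.

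By probe set, 6 of 17 rose and 0 fell early against 0 h, where 3.02% of all probe sets were called. In the next step 1 rose, 1416342_at of Tnc, and 6 fell, where 18.0% of all probe sets were called. None of the 17 passed from middle to late (9.41% of all probe sets called), and 3 rose and 1 fell late against 0 h (14.7%). Among 11 pairs of member probe sets that share a gene, the calls numbered 0, 3, 0 and 2 in the 4 comparisons, where 3.08%, 15.3%, 7.05% and 10.7% of all pairs were called. The 3 pairs of the second comparison belonged to Tnc, Fn1 and Hspg2, and the 2 of the last to Tnc and Hspg2. The Hspg2 pair from early to middle (-0.31 ± 0.10, adjusted p = 0.0382) was lost without any 1 of the early arrays or without the 3.0, 3.5 or 4.0 h array (adjusted p up to 0.114).

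Quantile normalization, which gives all arrays the same spread, kept the direction of the early changes but ended all 3 gene calls. The early calls of the 6 probe sets that rose were all lost as well. Tnc was then at 1.42 (adjusted p = 0.164), Thbs1 at 0.97 (adjusted p = 0.322) and Has2 at 0.77 (adjusted p = 0.275), and the call of Tnc late against 0 h was lost as well (0.74, adjusted p = 0.248). The rise of Has2 and the fall of Hspg2 late against 0 h passed under it. It also ended the fall of Thbs1 from early to middle (-0.41, adjusted p = 0.193). The pair calls of Fn1 from early to middle (adjusted p = 0.115), of Tnc late against 0 h (adjusted p = 0.177) and of Hspg2 in both steps (adjusted p = 0.0695 and 0.0862) were lost too. The part of the wide spread of the 0 h array in these results was not tested.

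A smooth course over time, fitted with no windows as a natural spline of 4 degrees of freedom, was called for 7 of the 8 genes, where 38.0% of all genes were called. The F values were 86.4 for Has2 (adjusted p = 1.19e-07), 43.0 for Tnc (adjusted p = 3.11e-06), 23.7 for Fn1 (adjusted p = 5.25e-05) and 20.9 for Thbs1 (adjusted p = 9.64e-05). Hspg2 followed at 11.7 (adjusted p = 0.00128), though its probe set 1418669_at was not called alone (adjusted p = 0.166). Postn (adjusted p = 0.0270) and Thbs2 (adjusted p = 0.0470) lay nearer the threshold. The call of Postn was lost without the 1.0, 1.5, 2.5 or 4.5 h array (adjusted p up to 0.144), and that of Thbs2 without any array other than 0, 1.5 and 2.5 h (adjusted p up to 0.117). Both also missed it with a spline of 5 degrees of freedom (adjusted p = 0.0520 and 0.0778). Sparc was the gene not called (adjusted p = 0.244). By probe set 11 of 17 were called, where 30.7% of all probe sets were. The differing courses of the Tnc probe sets both passed, with F values of 77.3 for 1416342_at and 48.4 for 1456344_at. A single probe set of Sparc also passed alone (1458204_at, adjusted p = 0.0174), with its highest array at 2.5 h and its lowest, 0.764, at 6.0 h.

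The study's own question was oscillation. A 2 h rhythm on top of a smooth trend was called by limma for 0 of the 8 genes, with 0 at an unadjusted p under 0.05, and for 0% of all genes, of which 721 had an unadjusted p under 0.05. Fitted amplitudes ran from 0.02 for Sparc and Postn to 0.19 for Tnc and Thbs1 on the log2 scale, with Has2 at 0.07 (adjusted p = 0.998 for each of the 8 genes).

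Receptors for these proteins were read from a list of integrins, syndecans and others, of which 29 of 30 had a value. Early against 0 h, 1 rose and 1 fell: Sdc4, the syndecan that works with integrins in adhesion to fibronectin, rose by 1.50 ± 0.19 (adjusted p = 0.00143), and the dystroglycan gene Dag1, whose product binds laminin and perlecan, fell by 0.42 ± 0.09 (adjusted p = 0.0237). In the step from early to middle 3 rose and 5 fell, with Itgb5 at -0.43 ± 0.06, Itgb8 at -0.37 ± 0.08 and Itga6 at 0.34 ± 0.11 the largest. The others were Itga2 and Calr, which rose, and Itga4, Itgav and Dag1, which fell. After that 1 rose to the late window, Itgb8 (0.75 ± 0.08), and 0 fell. By the late window 3 stood above 0 h and 2 below. Sdc4 was still up by 1.47 ± 0.19 (adjusted p = 3.64e-04), and the integrin subunit gene Itgb5 (-0.83 ± 0.10, adjusted p = 2.59e-04) and Dag1 (-0.80 ± 0.09, adjusted p = 1.75e-04) were down; Itgb8 and Itga6 were also up. The list medians were -0.06, -0.06, -0.03 and -0.12. Of all genes, 3.26% were called early against 0 h, 12.3% from middle to late and 18.7% late against 0 h. With 1 array left out, the early to middle counts ran from 0 to 3 up and 3 to 5 down, where 22.2% of all genes were called. Itgav lost that call in 9 of 13 such fits, Itga2 in 7, Itga4 in 5 and Calr in 4. The early to middle call of Itga6 was lost without any array other than 0, 2.0, 2.5 and 5.5 h (adjusted p up to 0.123), its late call without the 5.5 or 6.0 h array (adjusted p up to 0.0667) and after quantile normalization (adjusted p = 0.0627), and the early call of Dag1 after quantile normalization (adjusted p = 0.311).

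Basement membrane genes, the partners of perlecan, had values for 21 of 22. Early against 0 h 0 rose and 0 fell, where 3.26% of all genes were called. In the next step 0 rose and 7 fell, where 7.74% of all genes rose and 14.4% fell. The largest were the laminin chain Lama2 (-0.57 ± 0.09), the collagen chain Col4a5 (-0.51 ± 0.07) and the laminin chain Lamb2 (-0.40 ± 0.08). To the late window Lamb1 alone rose from the middle one (0.25 ± 0.07), where 10.3% of all genes rose. Its call was lost without the 1.5, 2.5, 3.5, 4.0, 5.0, 5.5 or 6.0 h array (adjusted p up to 0.132). In the late window 0 were above 0 h and 5 below, where 8.80% of all genes rose and 9.90% fell. The 5 were Lamb2 at -0.81 ± 0.13 (adjusted p = 0.00108), Col4a5 at -0.74 ± 0.11 (adjusted p = 6.92e-04) and Lama5 at -0.52 ± 0.12 (adjusted p = 0.00733), beside Lama2 and Lamb3. After quantile normalization 3 of these 5 passed, without Lamb3 (adjusted p = 0.114) and Lama2 (adjusted p = 0.0517). The 7 that fell to the middle window were 5 under it and 5 to 8 with 1 array left out. The list medians were -0.09, -0.06, -0.04 and -0.14, and Hspg2 was at -0.53 late against 0 h.

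Hyaluronan genes besides Has2 had values for 25 of 26. Early against 0 h 0 rose and 0 fell, where 3.26% of all genes were called. Has2 itself was called there, a call lost after quantile normalization (adjusted p = 0.275). Then 3 rose and 3 fell to the middle window, with the hyaluronan receptor gene Hmmr, also a mitotic spindle gene, at -0.45 ± 0.10, the hyaluronidase gene Hyal2 at 0.42 ± 0.10 and Ugp2, which makes UDP-glucose, at -0.25 ± 0.05. The others were Stab1 and Acan, which rose, and Vcan, which fell. With 1 array left out, Vcan lost the call in 10 of 13 fits (adjusted p up to 0.133) and Stab1 and Acan in 4 each, and 1 to 3 genes rose. The synthase gene Has1 fell from middle to late (-0.54 ± 0.11, adjusted p = 0.00857), and 0 rose. By the late window 0 were above 0 h and 2 below, Hmmr (-0.65 ± 0.16) and Ugdh (-0.48 ± 0.11, adjusted p = 0.00963), the enzyme that makes a sugar precursor of hyaluronan. The list medians were -0.04, 0.01, -0.04 and -0.05. Of all genes, 22.2% were called from early to middle, 12.3% from middle to late and 18.7% late against 0 h.

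Among other matricellular and adapter proteins, 30 of 31 had a value, and 1 rose and 0 fell early against 0 h. This was Ccn2, a matrix-associated growth regulator, which rose by 3.48 ± 0.16 (adjusted p = 3.83e-08). After quantile normalization it was at 1.70 early and at 1.34 late against 0 h and passed in both (adjusted p = 1.46e-04 and 2.08e-04). Then 1 rose, Mgp, and 4 fell to the middle window, with Thbs3 at -0.50 ± 0.08, Efemp1 at -0.45 ± 0.09 and Emilin1 at -0.42 ± 0.06, beside Ccn5. A single gene rose from middle to late, Ccn3 (0.35 ± 0.09), and 0 fell. By the late window 3 stood above 0 h and 3 below, with Ccn2 at 3.13 ± 0.16, the testican gene Spock1 at 0.44 ± 0.11 and Emilin1 at -0.37 ± 0.09; Tgfbi was also up, and Fbln1 and Dmp1 were down. With 1 array left out, Fbln1 lost the call in 9 of 12 fits, Dmp1 in 8 and Tgfbi in 4. After quantile normalization all 3 and Spock1 (adjusted p = 0.0851) were lost. The early to middle calls of Mgp and Ccn5 were lost in 4 of 13 fits each. The list medians were 0.01, -0.03, -0.01 and -0.01. Of all genes, 3.26%, 22.2%, 12.3% and 18.7% were called in the same comparisons in order.

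For TGF-beta ligands, their latent complexes and receptors, 18 of 20 had a value and 0 rose and 0 fell early against 0 h. In the next step 4 rose (Ltbp2, Tgfb1, Acvr1 and Eng) and 5 fell (Tgfbr1, Tgfbr2, Tgfbr3, Ltbp3 and Ltbp4). The latent binding protein gene Ltbp2 was at 0.55 ± 0.08, and the receptor genes Tgfbr1 and Tgfbr2 were at -0.41 ± 0.08 and -0.40 ± 0.06. Between middle and late 0 rose and 0 fell. By the late window 2 stood above 0 h and 3 below, with the activin subunit gene Inhba at 0.83 ± 0.21 (adjusted p = 0.0153; adjusted p = 0.227 after quantile normalization), Ltbp4 at -0.70 ± 0.10 and Tgfbr2 at -0.64 ± 0.10, beside Ltbp2 (up) and Bmp1 (down). With 1 array left out, Tgfb1 lost its early to middle call in 9 of 13 fits (adjusted p up to 0.139), Tgfbr3 in 7 and Acvr1 in 3, and 2 to 5 genes rose. The late calls of Ltbp2 and Bmp1 were lost in 6 and 2 of 12 such fits and after quantile normalization (adjusted p = 0.0926 and 0.0866). The list medians were -0.04, -0.05, 0.02 and -0.02. Of all genes, 3.26%, 22.2%, 12.3% and 18.7% were called in the same comparisons in order.

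**Figure D4:**
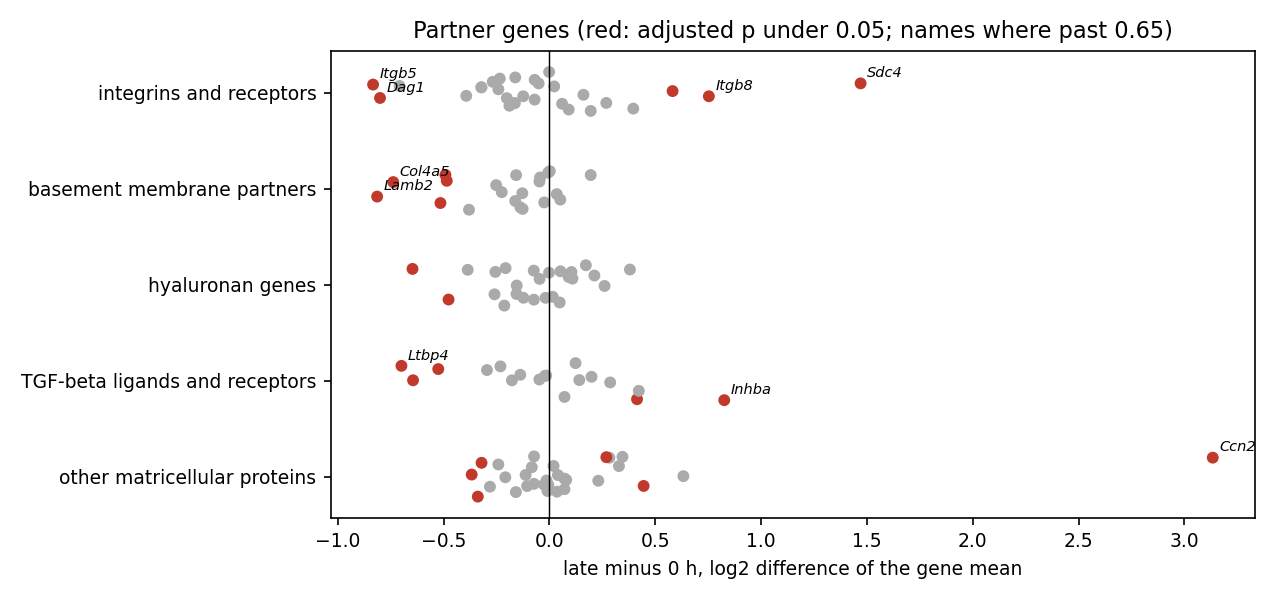
Log2 difference late minus 0 h of each measured gene (point, 1 per gene; the vertical scatter within a row has no meaning) in 5 lists of partner genes; red points passed an adjusted p of 0.05. Sdc4 and Ccn2 stand to the right, and all 5 called basement membrane genes lie to the left of 0 (3 of them passed after quantile normalization).

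The genes most like each member were taken by Pearson correlation of gene values over the 13 arrays, among 1079 genes with a range of at least 1 on the log2 scale; these are descriptions, and all values share the same arrays. The gene value of Tnc, a mean of 2 probe sets that correlated at -0.187, was most like Dusp6 (0.957), Id1 (0.943) and Errfi1 (0.934). The Tnc probe sets were not compared alone. Thbs1 was most like Junb (0.937), Noct (0.919) and Fosl2 (0.912). Has2 was closest to Ttc39b (0.972), Ereg (0.970) and Dnajc25 (0.965). Fn1, as a mean of its 2 probe sets, was closest to Rbm39 (0.954), Mki67 (0.937) and Kiz (0.900), and Hspg2 to Jup (0.979), Palm (0.963) and Hdac5 (0.962). The nearest genes to Thbs2 were Plau (0.893), Btd (0.882) and Dact1 (0.849). Sparc and Postn had no gene above 0.823 (Trp53inp2) and 0.714 (Bex1). Within the set, Tnc and Thbs1 correlated at 0.824 and Fn1 and Thbs1 at 0.782, while Has2 and Hspg2 ran opposite to each other at -0.703.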

How the data were processed

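RNA of 13 C2C12 samples was hybridised to 1 Affymetrix mouse array each. The authors deposited linear ratios per probe set; RMA is named in the submitters' processing notes. The value each ratio was taken against was not given in the sources used here. Of 45101 probe sets, 64 array controls were left out; 34945 named 1 gene, 932 several and 9160 none. Of the member probe sets, 16 of 17 had exactly 1 array at a ratio of 1. A gene value is the mean log2 ratio over the probe sets that name only that gene.

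Window means, a spline and a 2 h cosine and sine over a spline trend of 3 degrees of freedom were fitted with limma 3.58.1 (lmFit, eBayes, two-sided) in R 4.3.3, over all genes, all probe sets or all within-gene pairs. The spread of the lone 0 h array was taken to be that of the other windows. Tables and plots were made with numpy 2.4.6, pandas 2.3.3 and matplotlib 3.10.9 under Python 3.11.15. The models were run on simulated data with equal noise on every array, and with steps at the window bounds for the window fits. These data had neither the wider spread of the 0 h array nor, for windows, change inside a window. The simulation therefore cannot check the calls against 0 h. The alternatives are listed in the closing section.

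Members, partner lists and tests were chosen with earlier results of these data known. All members were named, with up to 3 called genes of largest change per list and comparison, and the 3 genes most correlated with each member (for Sparc and Postn the first is given). The other called genes of a list are named without values where they are few, which was added after their values were seen.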

Additional observations from a re-analysis of the deposited data

Results flagged for a closer look

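Within 72 sets of 4 arrays (a probe set or gene mean in 1 window), 3 had an array standing apart from the other 3 by Dixon's criterion at the 95% level; chance flags about 1 in 20. The Fn1 probe set 1437218_at was at a ratio of 2.20 at 2.0 h, the lowest early array, against 2.85 to 2.90 on the other three. The Tnc gene mean was lowest of the early window at 0.5 h, at 1.04 against 1.92 to 2.08. It was also lowest of the late window at 6.0 h, at 0.731 against 0.906 to 0.925.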

How the results depend on the processing

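Alternatives were quantile normalization, array medians set to 0, a variance trend with a robust prior, each array left out in turn, an early window of 0.5 to 1.5 h, 1 probe set per gene (the one of largest SD), a minimum change of 1, other splines and other periods. No called member or partner gene changed sign under any of them, and 390 of 2105 repeats of a call lost it. Many of these repeats could not change sign. The minimum change and the variance trend leave the difference itself as it was, and an F value has no sign. No paired analysis was possible because the labels carry no replicate numbers.

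Members called early against 0 h, 3 in the report, came to 0 after quantile normalization. They came to 2 with the variance trend, 2 with the shorter early window and 2 to 3 with an array left out. From early to middle they came to 2 after quantile normalization, 1 with the shorter early window, 0 with the minimum change and 3 to 5 with an array left out, against 4. Late against 0 h they were 3 to 4 with an array left out, and 2 after quantile normalization, with 1 probe set per gene or with the minimum change, against 3. The smooth course was called for 3 members as a straight line and for 5 to 7 with an array left out. Called pairs of member probe sets were 1 from early to middle, 1 from middle to late and 0 late against 0 h after quantile normalization, and 1 late against 0 h with the variance trend. With an array left out they were 0 to 1, 2 to 3, 0 to 1 and 1 to 2 in the 4 comparisons in order.

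Over all genes, calls early against 0 h numbered 45 after quantile normalization, 250 with the shorter early window, 59 with the minimum change and 298 to 1431 with an array left out, against 594. From early to middle they numbered 2284 with the shorter window and 55 with the minimum change, against 4033. From middle to late they were 8 with the minimum change and 1105 to 2570 with an array left out, against 2240. Late against 0 h they were 1902 after quantile normalization and 289 with the minimum change, against 3402. A straight line was called for 3704 genes against 6911 for the spline, and a 3 h period for 74 genes against 0 for 2 h.

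Uncalled values that changed sign were small. After quantile normalization they were Thbs2 late against 0 h (-0.017) and, early against 0 h, 1426642_at of Fn1 (0.023), 1416589_at of Sparc (0.0040) and 1450663_at of Thbs2 (0.024). Thbs2 from middle to late was -0.014 with the shorter early window, and Sparc from early to middle was 0.17 with 1 probe set. With an array left out, the ranges from middle to late were -0.31 to 0.030 for Fn1, -0.054 to 0.068 for Has2, -0.084 to 0.029 for Hspg2, -0.030 to 0.13 for Postn and -0.033 to 0.030 for Sparc. Thbs2 late against 0 h ran from -0.019 to 0.024, 1450663_at early against 0 h from -0.077 to 0.0073 and 1458204_at of Sparc late against 0 h from -0.17 to 0.024. From early to middle, 1418678_at of Has2 ran from -0.034 to 0.39 and the Has2 pair from -0.0054 to 0.16. The causes were not tested. Ratios hold no signal over background, so dim probe sets could not be told from bright ones.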
